A study of Mus musculus with 16 samples.

Results

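The genes described here are Vegfa, Nrp1, Hif1a and Angptl4, a set of angiogenic and hypoxia factors, chosen by symbol from the deposited expression table. All 4 were found there among 10296 genes, and all 4 were among the 8299 genes tested. Neutrophils positive for surface Ly6G had been sorted from lung, spleen and blood of C57BL/6 mice kept either germ-free (GF, that is with no microbes) or under SPF conditions (specific pathogen free, with a microbiota but without listed pathogens). There were 16 libraries in 6 groups: 3 each of GF lung, SPF lung, GF spleen and SPF spleen, and 2 each of GF blood and SPF blood. All animals shared the C57BL/6 background, the labels name no agent, and the age and sex of the mice and how the lungs and spleens were taken apart are not given in the sources used here. Nothing in the labels ties libraries to individual mice, and the p-values below therefore reflect only the variation among libraries, part or all of which may be technical.

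Levels are normalised counts (deposited values from which an offset worth 0.5 reads was subtracted), and 1 read was worth 0.392 to 7.62 normalised counts depending on the library. Reads recovered per library ran from 104213 to 3033941, with a median of 856319 in lung, 199487 in spleen and 2712907 in blood, and 5 of the 16 libraries held fewer than 250000 reads. The labelled cell type was checked on 15 neutrophil markers, whose summed level was 43150 to 64366 in lung, 50104 to 85769 in spleen and 66372 to 104170 in blood. Ly6g itself, the antigen used in the sort, averaged 35.2 ± 13.003 normalised counts in GF lung, 45.4 ± 5.14 in SPF lung, 207 ± 180 in GF spleen, 142 ± 30.1 in SPF spleen, 63.5 ± 47.8 in GF blood and 159.8 ± 14.8 in SPF blood (SD, n = 3 for lung and spleen, n = 2 for blood). The 15 markers had 16 tested entries, judged at an adjusted p under 0.05 (limma). Relative to blood, 0 were higher and 4 lower in GF lung, and 3 higher and 6 lower in SPF lung. Relative to spleen, 1 was higher and 4 lower in GF lung, and 1 higher and 5 lower in SPF lung. Of all tested genes, 1.96%, 6.63%, 2.14% and 1.99% were lower in these comparisons, in that order. The shares that were higher were 7.83%, 12.5%, 8.03% and 7.68%. Neutrophil markers were thus present in every library, several of them lower in lung. Transcripts of lung structural cells, described below, were found in the lung libraries as well.

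The genes have different places in the response of tissue to low oxygen. Hif1a encodes the oxygen-regulated subunit of the transcription factor HIF-1: hydroxylases mark the protein for degradation when oxygen is present, and when oxygen is scarce it accumulates, pairs with ARNT and binds short motifs near target genes. Vegfa, a classic target, encodes the main secreted growth factor for blood vessels, which acts through the receptors KDR and FLT1 on endothelium. Nrp1 encodes neuropilin-1, a co-receptor for VEGF-A and for class 3 semaphorins that is abundant on endothelium and found on some immune cells. Angptl4 encodes a secreted inhibitor of lipoprotein lipase that is induced by fatty acid receptors of the PPAR family and by hypoxia. Because HIF-1 is controlled largely through the stability of its protein, Hif1a transcript levels do not report its activity.

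On GRCm38 (mm10), Vegfa (ENSMUSG00000023951) lies on the minus strand at chr17:46016993-46032369, Nrp1 (ENSMUSG00000025810) on the plus strand at chr8:128358604-128503363, Hif1a (ENSMUSG00000021109) on the plus strand at chr12:73901375-73947530 and Angptl4 (ENSMUSG00000002289) on the minus strand at chr17:33773750-33781830. Gm15283 overlaps Hif1a on the opposite strand and Gm49321 overlaps it on the same strand. Strand-aware counting is not stated, so the Hif1a values may include reads of these genes and are uncertain to that extent. The 250 bases upstream of a RefSeq start site are shown for 3 of the genes, because HIF-1 binds the cores ACGTG and GCGTG. Both strands were searched for these and for the AP-1 motif TGANTCA. The windows are chr17:46032378-46032627 (minus strand) for Vegfa, chr8:128358823-128359072 (plus strand) for Nrp1 and chr12:73907617-73907866 (plus strand) for Hif1a, from the RefSeq promoter table for GRCm38.p6. Each is printed 5′ to 3′ along the gene, with motif matches in capitals.
Vegfa: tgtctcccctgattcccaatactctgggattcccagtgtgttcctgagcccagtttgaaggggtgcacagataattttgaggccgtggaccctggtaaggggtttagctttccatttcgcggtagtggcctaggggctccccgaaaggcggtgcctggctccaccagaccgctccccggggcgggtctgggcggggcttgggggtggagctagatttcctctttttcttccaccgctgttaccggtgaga
Nrp1: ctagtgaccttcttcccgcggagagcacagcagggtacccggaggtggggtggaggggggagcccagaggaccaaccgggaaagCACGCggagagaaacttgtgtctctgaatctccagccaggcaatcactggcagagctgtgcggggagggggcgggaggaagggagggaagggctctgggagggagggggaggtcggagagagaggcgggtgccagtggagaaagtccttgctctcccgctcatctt
Hif1a: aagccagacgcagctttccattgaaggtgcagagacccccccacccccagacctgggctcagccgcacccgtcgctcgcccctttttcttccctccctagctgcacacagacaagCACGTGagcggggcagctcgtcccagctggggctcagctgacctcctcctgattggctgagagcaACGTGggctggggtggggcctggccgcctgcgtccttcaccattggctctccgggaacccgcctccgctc
The Nrp1 window held GCGTG on its minus strand, read as CACGC on the plus strand 166 to 162 bases before the start. The Hif1a window held ACGTG on the plus strand at 134 to 130 and at 70 to 66 bases before the start, and on the minus strand at 135 to 131, where it overlaps the first as CACGTG. The Vegfa window shown held none of the motifs searched, which says only that these letters are not in it. RefSeq lists another Vegfa start, whose window at chr17:46025164-46025413 held ACGTG on the minus strand 211 to 207 bases and GCGTG on the plus strand 218 to 214 bases before that start; it is not printed because 218 of its 250 bases lie in annotated exons. Such matches are common: of 32851 promoter windows of the same length, 16.6% held ACGTG, 28.2% GCGTG and 6.75% TGANTCA, and of the 9848 windows that belong to genes of the expression table, 22.3%, 44.7% and 4.46% did.

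Across the tissues, Vegfa, Nrp1 and Angptl4 were read mainly in lung libraries, whereas Hif1a was read in every library. In GF mice, 3 of the 4 genes passed the test as higher in lung than in blood, beside 7.83% of the 8299 genes tested, and the same 3 passed as higher in lung than in spleen, beside 8.03% of the genes. In SPF mice, 4 of 4 passed as higher in lung than in blood, beside 12.5% of the genes, and 3 of 4 as higher in lung than in spleen, beside 7.68%. Within each kind of mouse both comparisons share the lung libraries. A gene entered the test when 2 or more libraries held a deposited value of 10 or above. Nrp1 reached 10 in 1 library outside the lung, Angptl4 in 0, and Vegfa in 2, each with a single read. Nrp1 and Angptl4 therefore entered the test through the group where they are high, while Vegfa would have entered without the lung libraries, and the counts over the 4 genes are a description. In these bulk samples more RNA per cell and more cells of one type cannot be told apart.

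**Figure D1:**
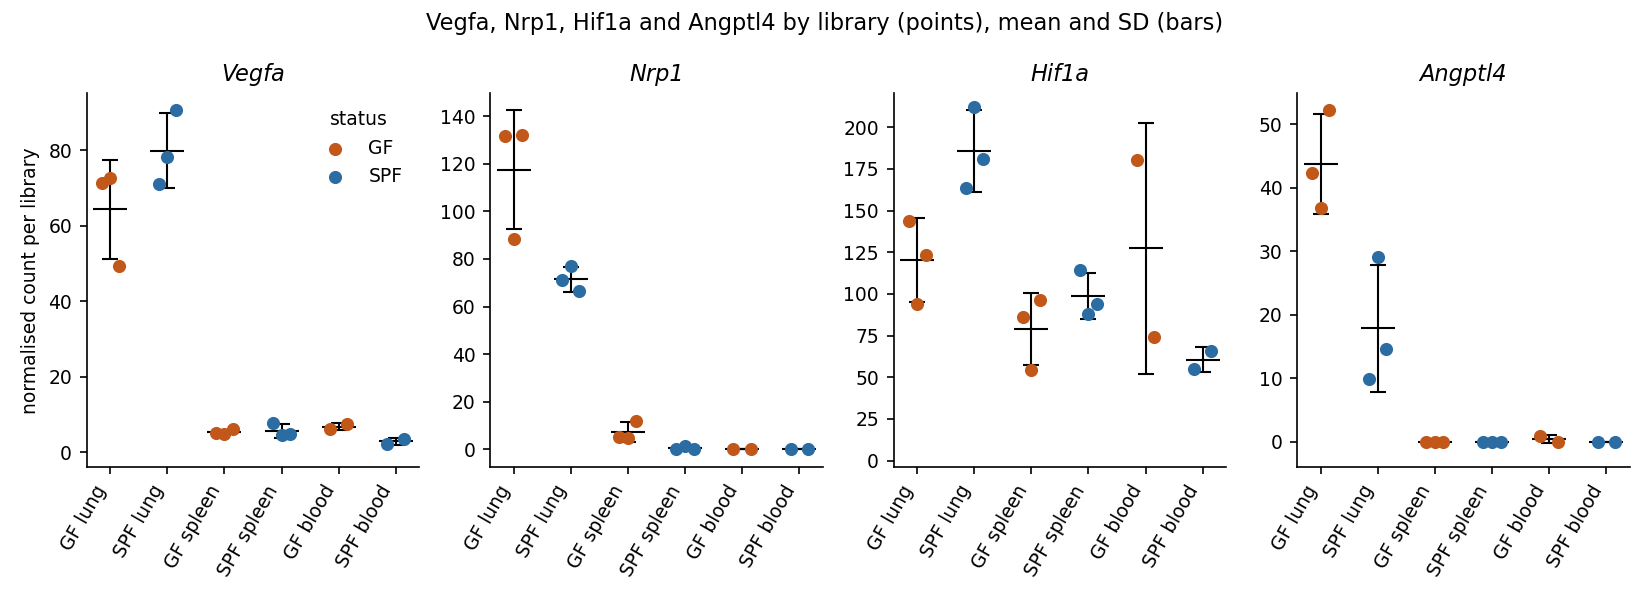
Normalised count (y axis, linear, a separate scale for each gene) of Vegfa, Nrp1, Hif1a and Angptl4 in each of 16 libraries (points, orange for GF and blue for SPF), with the mean and SD of each group (black bars, n = 3 for lung and spleen and n = 2 for blood). Vegfa lies at 49.3 or above in each lung library and at 7.62 or below elsewhere, while the Hif1a points of different tissues overlap.

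Vegfa, the vascular growth factor, was at 71.2, 72.6 and 49.3 normalised counts in the 3 GF lung libraries, against 5.07, 4.94 and 6.01 in GF spleen and 6.08 and 7.41 in GF blood. All 3 GF lung values lay above every GF value of the other tissues. Groups without overlap are common with so few libraries: among all tested genes they made up 43.5% for GF lung and blood, 28.9% for GF lung and spleen, 53.5% for SPF lung and blood and 25.3% for SPF lung and spleen. The difference was 2.79 ± 0.52 (SE) on the log2(value + 1) scale against GF blood, with an adjusted p of 0.000302, and 2.93 ± 0.47 against GF spleen, with an adjusted p of 2.87e-05 (limma, Benjamini-Hochberg). In reads, 175 in GF lung stood against 14 in GF blood and 4 in GF spleen, so the pooled ratio was 10.7 (95% counting interval 6.23 to 20.0) to blood and 12.7 (4.87 to 47.1) to spleen.

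In SPF mice Vegfa was at 70.9, 78.1 and 90.6 normalised counts in lung, against 7.62, 4.47 and 4.70 in spleen and 2.26 and 3.53 in blood. Again the lung values did not overlap with the others. The difference from SPF blood was 4.32 ± 0.52 (adjusted p = 3.17e-07) and that from SPF spleen 3.25 ± 0.47 (adjusted p = 5.93e-06), and the pooled ratios of normalised counts were 27.8 (16.2 to 51.8) and 16.6 (6.98 to 51.7). Ordered by group mean, Vegfa ran from SPF lung (79.9 ± 9.94) and GF lung (64.4 ± 13.1) to GF blood (6.74 ± 0.939), SPF spleen (5.598 ± 1.76), GF spleen (5.34 ± 0.582) and SPF blood (2.89 ± 0.898). The 2 lung groups overlapped, as did GF blood with SPF spleen and SPF spleen with GF spleen. GF spleen and SPF blood, the last neighbours, did not overlap, but they rested on 4 and 14 reads and were not compared by a test.

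Nrp1, the co-receptor, was at 131.6, 88.5 and 131.9 normalised counts in GF lung, against 5.07, 4.94 and 12.01 in GF spleen and 0 in both GF blood libraries. In SPF mice it was at 71.2, 76.9 and 66.3 in lung, against 0, 1.49 and 0 in spleen and 0 in both blood libraries. Each lung library held 36 to 109 reads of Nrp1, whereas the 6 spleen libraries held 6 reads in all and the 4 blood libraries none. Against a floor of 3 reads over the pooled blood libraries, Nrp1 was at least 88.9-fold higher in lung than in blood of GF mice and at least 113.5-fold higher in lung than in blood of SPF mice. The bounds follow the depth of single blood libraries: the first was at least 5.28-fold without GF blood replicate 2, and the second at least 60.8-fold without SPF blood replicate 3 and at least 52.8-fold without SPF blood replicate 4. The pooled ratio of lung to spleen was 17.4 (7.38 to 54.0) in GF mice and 72.4 (12.8 to 2879) in SPF mice, the second resting on 1 read in SPF spleen replicate 2, without which the fold was at least 8.19. On the log2(value + 1) scale the differences were 5.602 ± 0.61 against GF blood (limma adjusted p = 5.58e-08), 3.55 ± 0.54 against GF spleen (1.57e-05), 5.91 ± 0.61 against SPF blood (2.02e-08) and 4.29 ± 0.54 against SPF spleen (7.11e-07). The order of group means was GF lung (117 ± 25.0), SPF lung (71.5 ± 5.30), GF spleen (7.34 ± 4.05), SPF spleen (0.496 ± 0.860) and the blood groups at 0.

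Angptl4, the lipase inhibitor, was at 42.3, 36.8 and 52.2 normalised counts in GF lung, against 0 in all 3 GF spleen libraries and 0.935 and 0 in GF blood. It was at 9.85, 29.1 and 14.6 in SPF lung, against 0 in all 3 SPF spleen and both SPF blood libraries. Outside the lung, the gene had 2 reads in 10 libraries, both in GF blood replicate 2. The fold was at least 11.2 in GF lung over GF spleen, at least 6.04 in SPF lung over SPF spleen and at least 28.4 in SPF lung over SPF blood. The ratio of GF lung to GF blood was 48.3, with a counting interval of 13.1 to 405, and the fold was at least 1.97 without GF blood replicate 2. Without 1 library, the bound in GF lung over GF spleen was at least 5.30 (GF spleen replicate 3 left out), and that in SPF lung over SPF spleen at least 2.05 (SPF spleen replicate 2 left out). The bound in SPF lung over SPF blood was then at least 15.2 without SPF blood replicate 3 and at least 13.2 without SPF blood replicate 4. The spleen bounds are low because 3 reads over the pooled spleen libraries equal 3.903 normalised counts in GF and 2.95 in SPF mice. In the limma fit the log2(value + 1) differences were 3.81 ± 0.66 against GF blood (adjusted p = 0.000116), 3.83 ± 0.59 against GF spleen (2.10e-05), 3.896 ± 0.66 against SPF blood (7.02e-05) and 2.57 ± 0.59 against SPF spleen (0.00336).

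Hif1a, the regulated HIF-1 subunit, was spread differently. It was at 143.7, 93.8 and 123 normalised counts in GF lung, against 86.2, 54.3 and 96.1 in GF spleen and 180.5 and 74.1 in GF blood. The GF groups overlapped, and the lung differences were 0.00 ± 0.33 from blood (limma adjusted p = 0.996, 95% interval -0.68 to 0.69) and 0.59 ± 0.30 from spleen (adjusted p = 0.249, -0.02 to 1.199). The GF blood pair was uneven in depth as well as level: the value of 180.5 rested on 386 reads and that of 74.1 on 10 reads, whose exact Poisson interval is 35.5 to 136. Without the 5 shallow libraries, the lung difference was -0.60 from GF blood and 1.09 from GF spleen. That removal leaves only GF blood replicate 2, the higher blood value, and GF spleen replicate 3, the lowest spleen value.

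In SPF mice Hif1a was at 164, 212 and 181 normalised counts in lung, against 114, 87.9 and 94.0 in spleen and 55.1 and 65.8 in blood. Lung, spleen and blood did not overlap here, and for spleen and blood this was so for 36% of the tested genes. Hif1a rose by 1.60 ± 0.33 in SPF lung relative to SPF blood (adjusted p = 0.000771, limma), a pooled ratio of 3.10 (2.67 to 3.61), while the difference of 0.88 ± 0.30 from SPF spleen did not pass (adjusted p = 0.0611). That spleen difference passed under other settings, among them array weights (0.99, adjusted p = 0.0103). Without the shallow libraries it was 1.06, with only SPF spleen replicate 2, the lowest spleen value, left in its group. The group means ran from SPF lung (186 ± 24.6) through GF blood (127 ± 75.3), GF lung (120.2 ± 25.1), SPF spleen (98.8 ± 13.8) and GF spleen (78.9 ± 21.8) to SPF blood (60.4 ± 7.54), and each neighbouring pair overlapped in its libraries.

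**Figure D2:**
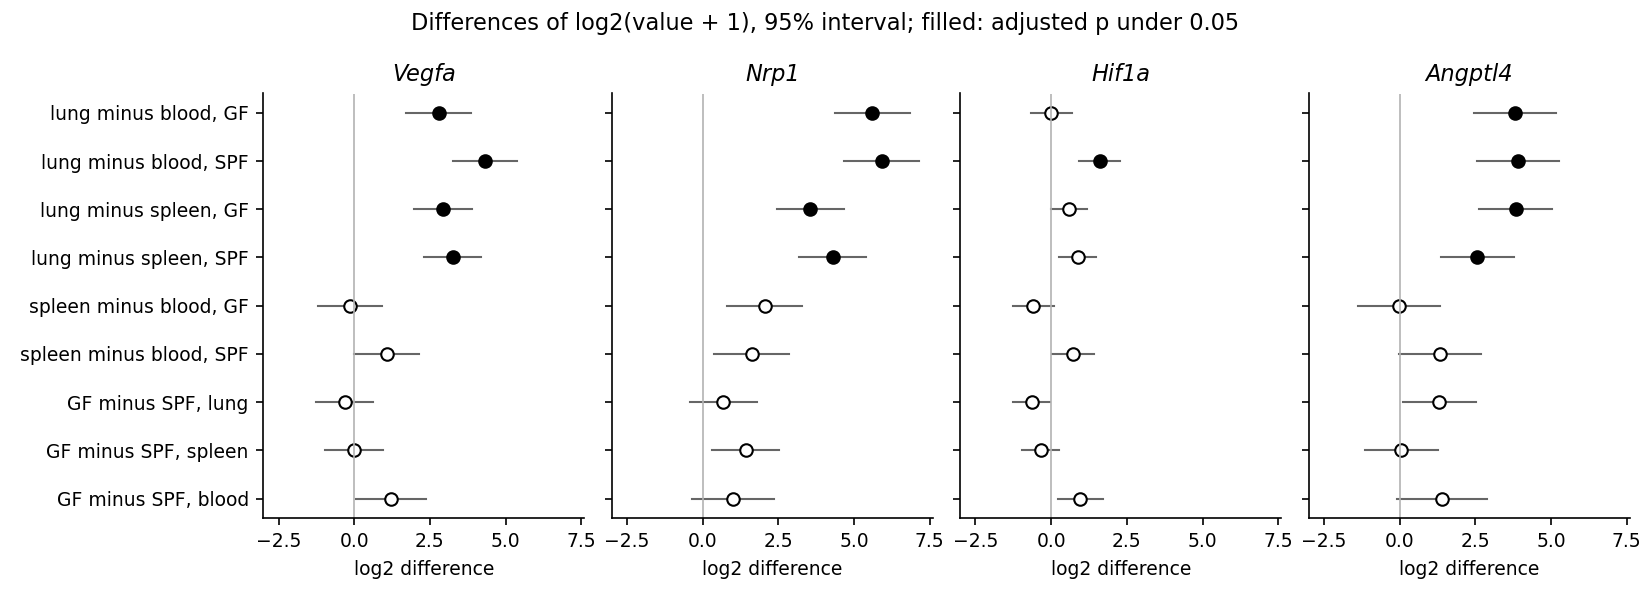
Difference of log2(value + 1) (x axis) in the 9 comparisons between groups (y axis) for each of the 4 genes, with its 95% interval from limma, filled where the adjusted p over 8299 genes was under 0.05. Vegfa, Nrp1 and Angptl4 have filled points in the 4 lung comparisons, Hif1a has 1 (SPF lung minus SPF blood), and no point for spleen minus blood or GF minus SPF is filled.

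Between spleen and blood, 0 of the 4 genes passed in GF mice, beside 0.88% of the tested genes, and 0 of 4 passed in SPF mice, beside 7.06% (limma). At an unadjusted p under 0.05, Nrp1 reached the threshold in GF mice, and Vegfa, Nrp1 and Hif1a did in SPF mice. Of the 8299 tested genes, 1001 reached it in GF and 1938 in SPF mice. The largest difference was that of Nrp1, 2.05 ± 0.61 in GF mice (unadjusted p = 0.00202, limma adjusted p = 0.125) and 1.63 ± 0.61 in SPF mice (adjusted p = 0.0991). In GF mice the Nrp1 reads were 5 over 3 spleen libraries against 0 in blood, at least 5.56-fold higher, and in SPF mice they were 1 against 0. Without GF blood replicate 2 the GF spleen mean lay under the blood floor of 22.2 normalised counts, so no bound can be given. Without the shallow libraries the Nrp1 difference in GF mice was 2.54, with only GF spleen replicate 3 and GF blood replicate 2 left. Angptl4 shows how the offset enters such low values: its fitted SPF spleen minus SPF blood difference was 1.33 although all 5 libraries had 0 reads, because 0.5 reads is worth more in a shallow library. With no pseudocount that offset alone gave 3.16 (adjusted p = 0.0294), so it is no measured change.

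GF and SPF mice were compared within each tissue, the question of what the absence of microbes does to these transcripts. None of the 4 genes passed in lung, where 0.0241% of the tested genes did, in spleen (0.325%) or in blood (1.33%), by limma with adjustment over all genes. At an unadjusted p under 0.05, Hif1a and Angptl4 reached the threshold in lung, Nrp1 in spleen, and Vegfa and Hif1a in blood. Of the 8299 tested genes, 332 reached it in lung, 1032 in spleen and 1367 in blood. In lung, 3 of the 4 genes did not overlap between GF and SPF libraries, beside 14.2% of all tested genes: Nrp1 and Angptl4 were higher in each GF library and Hif1a lower.

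For Nrp1 the lowest GF lung value was 88.5 and the highest SPF lung value 76.9, with a log2 difference of 0.68 ± 0.54 (adjusted p = 0.999, limma; 95% interval -0.43 to 1.79). For Angptl4 the lowest GF lung value was 36.8 and the highest SPF lung value 29.1, with a difference of 1.32 ± 0.59 (unadjusted p = 0.0345, adjusted p = 0.999). The exact Poisson intervals of these 2 values overlapped, at 26.8 to 50.2 and 18.9 to 43.0. For Hif1a the highest GF lung value was 143.7 and the lowest SPF lung value 164, with a difference of -0.63 ± 0.30 (unadjusted p = 0.0422, adjusted p = 0.999). Vegfa overlapped, with a difference of -0.32 ± 0.47 (adjusted p = 0.999, -1.27 to 0.63). The intervals are wide enough that equal levels were not shown either.

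In spleen, the GF minus SPF differences were -0.00 ± 0.47 for Vegfa, 1.42 ± 0.54 for Nrp1 (unadjusted p = 0.0139, limma adjusted p = 0.264), -0.34 ± 0.30 for Hif1a and 0.06 ± 0.59 for Angptl4, whose 6 spleen libraries had no read. The Nrp1 difference rested on 5 reads in GF spleen and 1 in SPF spleen. In blood, Hif1a was at 180.5 and 74.1 normalised counts in GF mice, against 55.1 and 65.8 in SPF mice. These groups did not overlap, as was so for 49.2% of the tested genes with 2 libraries on each side, and the difference was 0.96 ± 0.37 (adjusted p = 0.175, limma). It passed when each value was weighted by its reads with voom, limma's precision weights (1.36, adjusted p = 0.00428). Without the shallow libraries it was 1.57, from a fit with 1 GF blood library, which is assumed to vary like the other groups. Vegfa was 1.21 ± 0.57 higher in GF than in SPF blood on the same scale and did not pass (adjusted p = 0.282). The fitted 0.99 of Nrp1 between GF and SPF blood came from 4 libraries without a read.

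The tissue differences were also compared between the 2 kinds of mice. For lung minus blood, GF minus SPF, the difference of differences was -1.60 ± 0.47 for Hif1a (unadjusted p = 0.00204, limma adjusted p = 0.302), -1.53 ± 0.74 for Vegfa (adjusted p = 0.655), -0.31 ± 0.86 for Nrp1 and -0.08 ± 0.94 for Angptl4. None of the 4 passed, beside 0.012% of the genes tested. Hif1a and Vegfa reached an unadjusted p under 0.05, as did 623 of the 8299 genes tested. The Hif1a value passed with voom weights (-2.02, adjusted p = 0.00884). Without the shallow libraries, which leaves only GF blood replicate 2 in its group, it was -2.20. For lung minus spleen, none passed either, beside 0.012% of the genes, and none reached an unadjusted p under 0.05, beside 561 of the 8299. The values lay between -0.74 for Nrp1 and 1.26 for Angptl4.

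Lung structural markers moved with the lung comparisons. The lists for epithelial, endothelial and stromal cells held 35 tested markers. In GF lung, 29 of them were higher and 1 lower relative to blood, and 29 were higher relative to spleen. In SPF lung, 31 were higher and 2 lower relative to blood, and 27 were higher relative to spleen. The shares of all tested genes that were higher were 7.83% and 8.03% in GF lung relative to blood and spleen, and 12.5% and 7.68% in SPF lung. Relative to blood, 1.96% were lower in GF lung and 6.63% in SPF lung. The summed endothelial markers were 2103, 1333 and 2267 normalised counts in GF lung replicates 2, 3 and 4 and 763, 1150 and 1163 in SPF lung replicates 1, 2 and 3, against 18.8 to 49.1 in spleen and 29.6 to 52.4 in blood. The summed epithelial markers were 4436 to 11835 in GF lung and 2987 to 5886 in SPF lung, against 191 to 396 in spleen and 259 to 445.5 in blood. The summed stromal markers were 1017 to 1757 in lung, against 168 to 908 in spleen and 536 to 1158 in blood. Among defining markers, Cldn5, a tight junction protein of endothelium, averaged 181 ± 53.7 in GF lung and 128 ± 51.2 in SPF lung, had 0 reads in spleen and GF blood, and had 1 read in SPF blood. Sftpc, a surfactant protein made by alveolar type II cells, averaged 5533 ± 2179 in GF lung and 2335 ± 757 in SPF lung, against 3.38 ± 5.86 in GF spleen, 5.10 ± 2.35 in SPF spleen, 11.9 ± 4.19 in GF blood and 6.40 ± 6.28 in SPF blood. The part of these cells in the lung levels of Vegfa, Nrp1, Hif1a and Angptl4 was not tested.

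**Figure D3:**
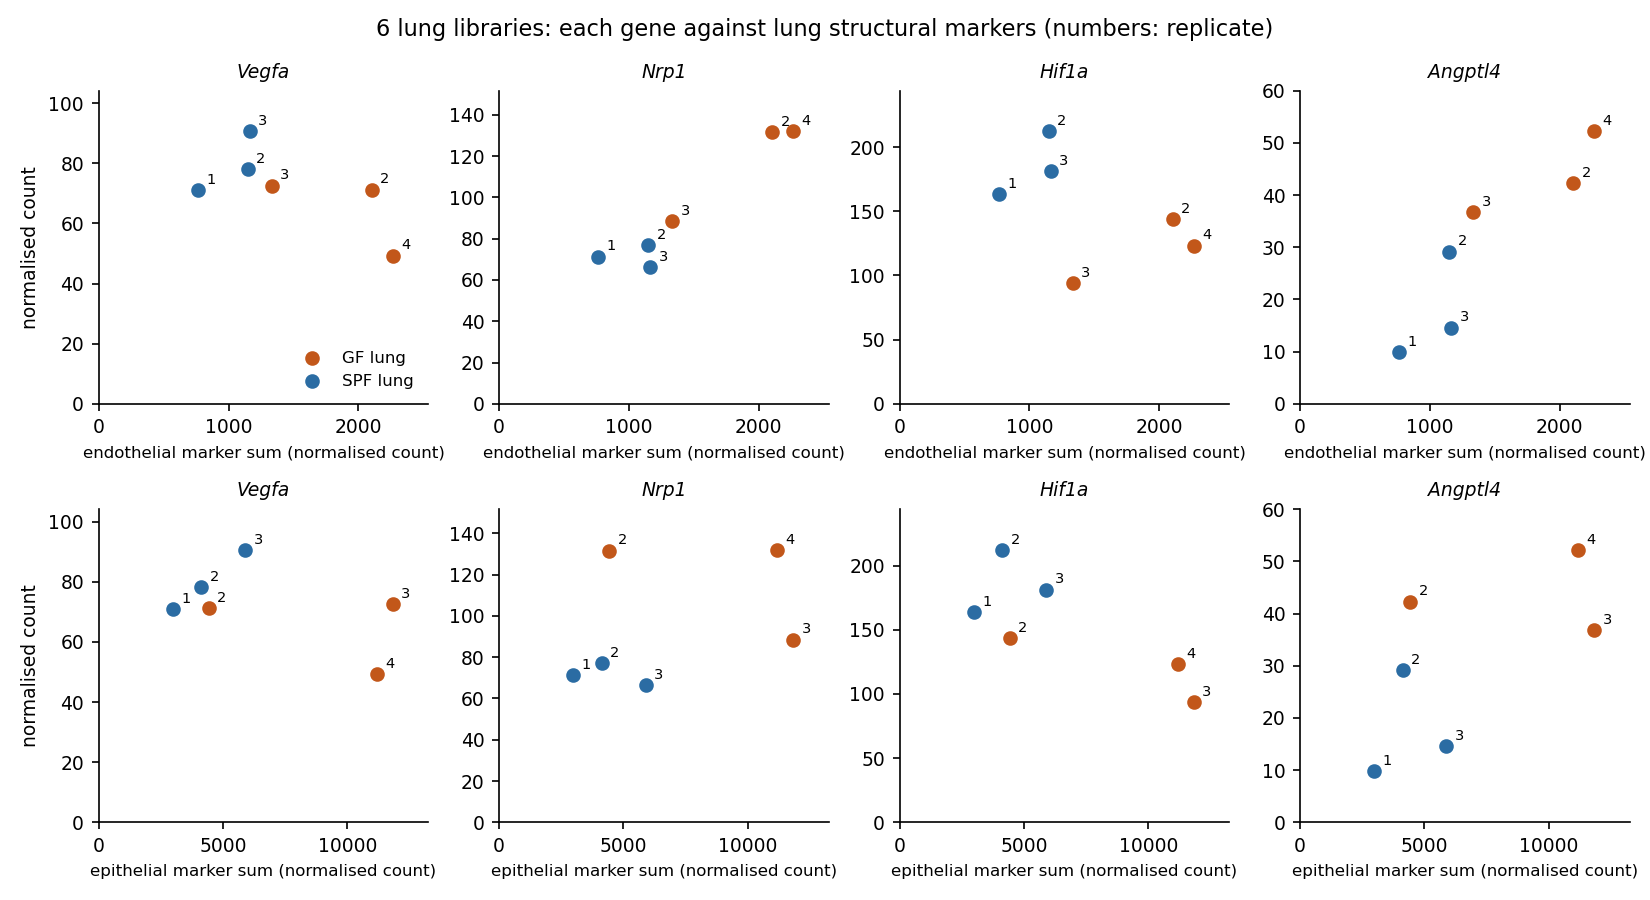
Normalised count of each gene (y axis) in the 6 lung libraries against the summed endothelial markers (top, x axis) and the summed epithelial markers (bottom, x axis), both in normalised counts, with GF in orange, SPF in blue and the replicate number beside each point. Nrp1 and Angptl4 are highest in GF replicates 2 and 4, which also have the highest endothelial sums of 2103 and 2267, whereas Vegfa and Hif1a are not.

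Within the lung, the genes differed in how they ran beside these sums. The level of Nrp1 spanned 1.99-fold over the 6 lung libraries and the endothelial sum 2.97-fold. Nrp1 as a percentage of the endothelial sum was 6.26, 6.64 and 5.82 in GF lung replicates 2 to 4 and 9.34, 6.69 and 5.70 in SPF lung replicates 1 to 3, a span of 1.64-fold. Angptl4 spanned 5.30-fold as a level and 2.20-fold as a percentage of the endothelial sum (2.01, 2.76 and 2.30 in GF lung, 1.29, 2.53 and 1.25 in SPF lung). Both genes thus had a smaller span beside the endothelial sum than as levels. This was not particular to endothelium for Angptl4, which spanned 3.85-fold beside the epithelial sum, whereas Nrp1 spanned 3.97-fold there. The lowest Angptl4 level, in SPF lung replicate 1, rested on 5 reads. Counting error was not taken into account in these spans, and the source of the transcripts was not tested.

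Vegfa and Hif1a had a larger span beside the endothelial sum than as levels. Vegfa spanned 1.84-fold as a level, but 4.28-fold as a percentage of the endothelial sum, which was 3.39, 5.45 and 2.17 in GF lung and 9.30, 6.79 and 7.79 in SPF lung. Hif1a spanned 2.26-fold as a level and 3.95-fold as a percentage of that sum, at 6.83, 7.04 and 5.44 in GF lung and 21.4, 18.4 and 15.6 in SPF lung. Beside the epithelial sum the percentages spanned 5.39-fold for Vegfa, 3.97-fold for Nrp1, 6.91-fold for Hif1a and 3.85-fold for Angptl4. These are descriptions of 6 libraries, in which the GF lung endothelial sums were also higher than the SPF ones.

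The receptors and ligands around Vegfa were taken from a list of 27 angiogenic factors, of which 12 were in the table and 10 tested. Of these 10, 4 were higher in GF lung relative to blood, and 6 were higher and 1 lower relative to spleen. In SPF lung, 5 were higher relative to blood and 5 relative to spleen. Of all tested genes, 7.83%, 8.03%, 12.5% and 7.68% were higher in lung in the GF blood, GF spleen, SPF blood and SPF spleen comparisons, and 1.96%, 2.14%, 6.63% and 1.99% were lower. The list's median log2 difference was 1.33, 2.36, 2.21 and 1.98 in these comparisons, beside 0.15, 0.11, 0.16 and 0.06 for all tested genes. Kdr, the main signalling receptor for VEGF-A, averaged 105 ± 34.5 normalised counts in GF lung and 84.4 ± 30.9 in SPF lung, with 0 reads in spleen and 3 reads in blood, and rose in all 4 lung comparisons (4.76 to 5.89 in log2). Flt1, a high-affinity receptor for VEGF-A, averaged 41.8 ± 17.1 in GF lung and 36.4 ± 7.71 in SPF lung and rose in all 4 as well (2.68 to 4.21). Hbegf, an EGF receptor ligand, rose by 2.35 to 3.18.

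Thbs1, the secreted anti-angiogenic protein thrombospondin-1, averaged 2114 ± 145 normalised counts in GF lung and 2168 ± 1169 in SPF lung, against 196 ± 52.5 in GF spleen, 27.9 ± 16.2 in SPF spleen, 184 ± 95.4 in GF blood and 22.1 ± 14.7 in SPF blood. It rose by 3.44 to 6.57 on the log2 scale in the 4 comparisons (limma, largest adjusted p = 0.000408). Members called in some comparisons were Ecm1, an extracellular matrix protein, higher in lung than in spleen by 2.77 in GF and 2.78 in SPF mice, and the TIE2 ligands Angpt1 and Angpt2. Angpt1 was 2.37 higher in GF lung than in GF spleen, and Angpt2 was 3.60 higher in SPF lung than in SPF blood. Tgfb1, a cytokine of many cell types, was lower in GF lung than in GF spleen (difference -1.38, adjusted p = 0.0431). The list thus held both promoters and inhibitors of vessel growth among its higher genes.

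For the semaphorin side of neuropilin-1, 19 semaphorins, plexins and partners were listed, 9 were in the table and 6 tested. In lung relative to blood, 1 was higher in GF mice and 2 in SPF mice, and none passed relative to spleen, beside the 7.83% and 12.5% of all tested genes that were higher than in blood. Plxnb2, a receptor of class 4 semaphorins, was higher by 2.94 in GF and by 3.62 in SPF lung than in blood, where it had 0 reads. Sema4d, a membrane semaphorin of leukocytes, was 1.89 higher in SPF lung (330 ± 47.7 normalised counts) than in SPF blood (88.9 ± 19.02).

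The partners and targets of Hif1a were counted in the same way. Of 12 HIF subunits and oxygen sensors, 10 were tested, and 1 passed in the lung comparisons: Egln3, a HIF hydroxylase, fell by 1.79 on the log2 scale in SPF lung relative to SPF blood, where 6.63% of all tested genes were lower. Arnt, the partner of HIF-1α, averaged 68.4 ± 13.8 normalised counts in GF lung and 67.0 ± 12.03 in SPF lung, against 42.2 ± 28.3 in GF blood and 27.9 ± 3.98 in SPF blood, and did not pass (adjusted p = 0.368 in GF and 0.0575 in SPF mice). Of 31 tested HIF targets, 1 was higher and 2 lower in GF lung relative to blood, and 2 were higher and 4 lower relative to spleen. In SPF lung, 3 were higher and 8 lower relative to blood, and 2 were higher and 2 lower relative to spleen. The shares of all tested genes were 7.83% higher and 1.96% lower in GF lung relative to blood, 8.03% and 2.14% relative to GF spleen, 12.5% and 6.63% in SPF lung relative to blood, and 7.68% and 1.99% relative to SPF spleen. The medians of this list were -0.21, -0.34, -0.21 and -0.21, beside the medians of 0.15, 0.11, 0.16 and 0.06 for all genes.

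The HIF targets that passed went both ways. Slc16a3, the lactate exporter MCT4, averaged 1424 ± 274 normalised counts in GF lung and 2349 ± 478 in SPF lung, against 482 ± 53.5 in GF spleen, 253 ± 32.1 in SPF spleen, 333 ± 125 in GF blood and 527 ± 156 in SPF blood. It rose in all 4 comparisons, by 1.54 to 3.18. Slc2a1, the glucose transporter GLUT1, was higher in lung than in spleen by 0.80 in GF and 1.08 in SPF mice. Among those lower in lung were the glycolytic enzymes Eno1 (-0.81 against GF blood, -1.24 against blood of SPF mice, -0.67 against GF spleen), Gapdh (-1.46 against SPF blood, -0.69 against GF spleen) and Aldoa (-1.18 against SPF blood). Hmox1, which breaks down haem, was also lower in lung than in spleen (-0.79 in GF and -0.96 in SPF mice) and than in SPF blood (-1.21). Erythroid transcripts differed in the same comparison, with summed levels of 38.9 to 2062 in lung against 43852 to 99051 in blood, and their part in these differences was not tested.

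Of 19 genes around Angptl4 (lipoprotein lipase, its partners and PPAR targets), 11 were in the table and 9 tested. Of these, 3 were higher in GF lung relative to blood and 3 relative to spleen. In SPF lung, 3 were higher and 1 lower relative to blood, and 1 was higher relative to spleen, beside 7.83%, 8.03%, 12.5% and 7.68% of all tested genes that were higher in these comparisons and 6.63% lower in SPF lung relative to blood. Cd36, a fatty acid transporter, averaged 546 ± 166 normalised counts in GF lung and 270 ± 65.0 in SPF lung, against 0 in spleen, 6.08 ± 8.60 in GF blood and 2.41 ± 2.13 in SPF blood, and rose in all 4 comparisons (6.06 to 7.39). Lpl, the lipase that Angptl4 inhibits, averaged 67.0 ± 30.2 in GF lung and 15.2 ± 7.14 in SPF lung. It rose by 4.33 relative to GF blood, 3.99 relative to GF spleen and 2.36 relative to SPF blood, while its difference of 1.002 from SPF spleen did not pass (limma adjusted p = 0.376). Pnpla2, a triglyceride lipase, was the gene that fell in SPF lung relative to SPF blood (-0.86).

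**Figure D4:**
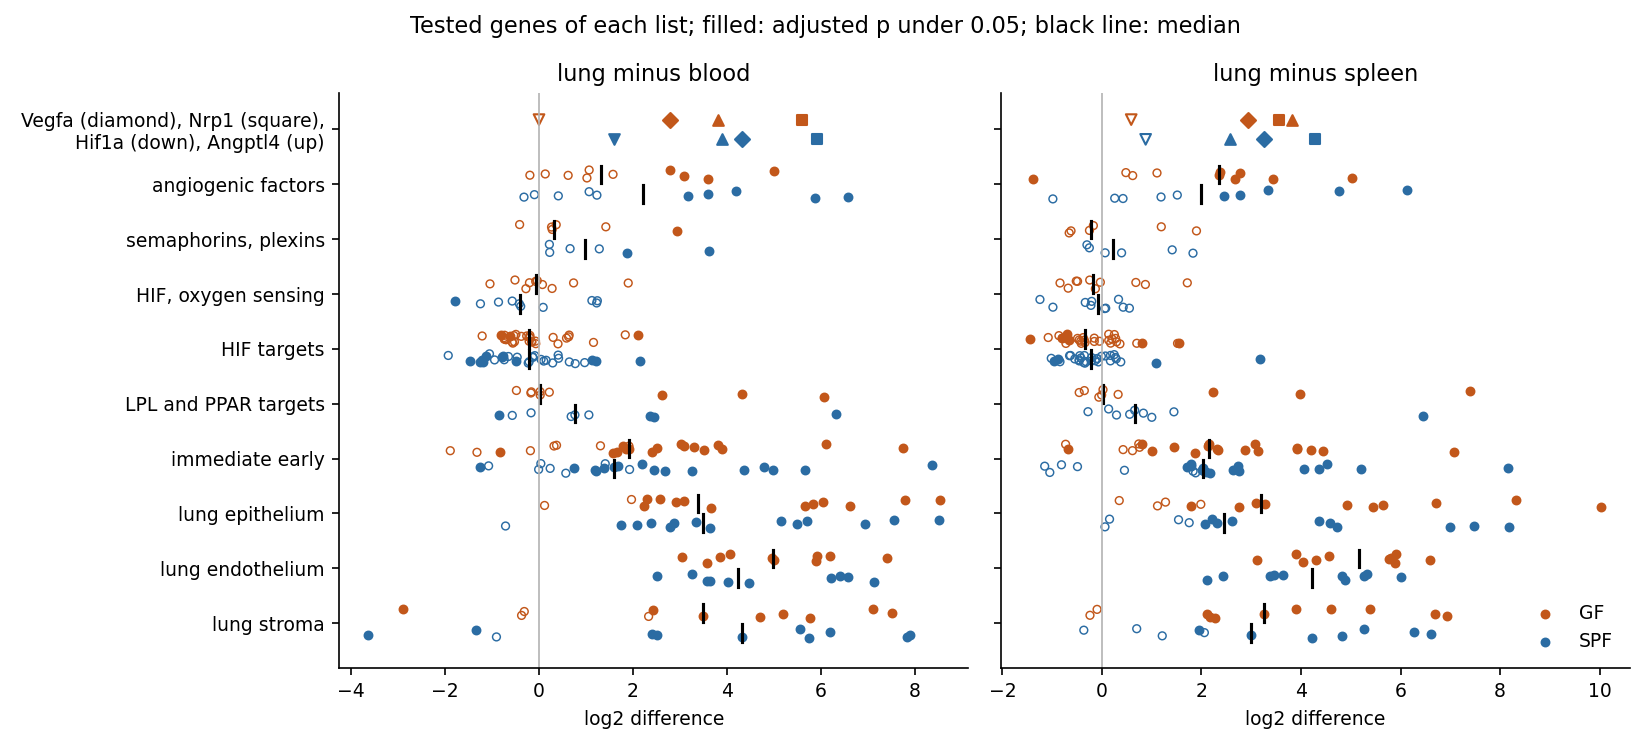
Log2 difference (x axis) of lung minus blood (left) and lung minus spleen (right) for the tested genes of 9 lists (rows), with the 4 genes in the top row, GF in orange above SPF in blue, filled where the adjusted p was under 0.05, and a black line at each list's median. The medians of lung endothelium lie between 4.23 and 5.16 and those of the HIF targets between -0.34 and -0.21.

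Other transcripts that differed between the tissues are given beside the 4 genes for reading them. Immediate early genes, which cells switch on within minutes of stimulation or handling, summed to 28690 to 38052 normalised counts in lung, against 5000 to 11902 in spleen and 7012 to 13148 in blood. Of 23 tested, 15 or 16 were higher in each lung comparison, and 1 was lower in each except SPF lung minus spleen. Of all tested genes, 7.83%, 8.03%, 12.5% and 7.68% were higher in lung in the GF blood, GF spleen, SPF blood and SPF spleen comparisons, and 1.96%, 2.14%, 6.63% and 1.99% were lower. The immediate early sum spanned 1.33-fold within the lung. The summed macrophage and monocyte markers were 1252 to 1404 in lung, 1495 to 1838 in spleen and 1341 to 1979 in blood, so the summed lung range was not above that of blood. Single markers did differ: of 10 tested, 1 was higher and 1 lower in GF lung relative to blood. In SPF lung 3 were higher and 2 lower relative to blood, with a median log2 difference of 1.08, and none passed relative to spleen. Platelet markers summed to 10.6 to 27.1 in lung, 0 to 18.02 in spleen and 377 to 790 in blood, with Ppbp, a platelet chemokine, at 6.41 ± 2.56 in GF lung and 6.42 ± 4.77 in SPF lung, against 238 ± 11.6 in GF blood and 209 ± 68.7 in SPF blood. Dendritic cell markers summed to 125 to 228 in lung, 61.1 to 186 in spleen and 53.7 to 88.9 in blood. B cell markers summed to 482 to 709.5 in lung, 462 to 763 in spleen and 468 to 684 in blood. T and NK cell markers summed to 10.9 to 23.9 in lung, 6.01 to 25.4 in spleen and 7.41 to 18.97 in blood. Single B cell and dendritic cell markers differed beside these sums. Relative to blood, 2 of 8 tested B cell markers were higher in GF lung and 6 in SPF lung (SPF median log2 difference 2.63). Relative to spleen, none passed in GF lung and 3 were higher in SPF lung (SPF median 1.39). Of 5 tested dendritic cell markers, 2 were higher in GF and 3 in SPF lung relative to blood (SPF median 2.45). Compared with spleen, 1 of them was higher in each kind of mouse. Markers of mast cells, basophils and eosinophils summed to 137 to 267 in GF lung and 120 to 141 in SPF lung, against 86.2 to 114 in spleen and 59.3 to 129.5 in blood. Of 4 tested, 2 were higher in each of the 4 lung comparisons, and 1 was lower in SPF lung relative to spleen. Gata2 and Kit passed in all 4 comparisons. The part of these cells and of handling in the levels of the 4 genes was not tested.

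Across the 16 libraries, Vegfa, Nrp1 and Angptl4 had similar profiles on the log2(value + 1) scale, with Pearson's r of 0.941 between Vegfa and Nrp1, 0.940 between Vegfa and Angptl4 and 0.945 between Nrp1 and Angptl4. Hif1a was less like them, with r of 0.712 to Vegfa, 0.611 to Angptl4 and 0.559 to Nrp1. The libraries of a tissue share their depth range and offset, so these values describe profiles and carry no test. The 5 genes most like Vegfa were Gpc3, Il23a, Cryab, Mxra8 and F2r (r from 0.987 to 0.9904). Those most like Nrp1 were Il1a, C1s1, Cdo1, Igfbp4 and Gimap4 (0.973 to 0.978), and those most like Angptl4 were Gata2, Ndrg2, Nsg1, Phlda3 and Prss23 (0.984 to 0.992). The nearest genes to Hif1a, March7, Zswim4, Nup98, Tecpr1 and Gtf3c5, reached 0.802 to 0.827. Gata2, a transcription factor of mast cells and basophils and also of endothelium, averaged 69.0 ± 21.7 normalised counts in GF lung and 25.0 ± 5.30 in SPF lung, with 0 reads in spleen and 3 reads in blood.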

How the data were processed

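The sort used CD45, CD11b, Ly6G and DAPI, per the labels' protocols, and cDNA made with a low-input amplification kit was read from both ends. Tools named in the submitters' processing notes are CASAVA, RSEM 1.3.1, limma and the assembly mm10; the annotation, the filter on low genes and strand-aware counting are not given in the sources used here. The deposited file holds 1 signal value per gene and library, with no unit in its header. Its low values are steps of 1 read above an offset of 0.5 reads (91.2% to 98.7% of those under 10 reads lay within 0.05 of a whole read), which was inverted to recover reads and normalised counts. The planned count test was not used, because part of the recovered values was not whole. Testing was limited to genes that reached a value of 10 in 2 or more libraries, which left out 1997.

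Differences of log2(value + 1) were fitted in limma 3.58.1 (R 4.3.3, statmod 1.5.0) with 6 group means over 16 libraries in 1 model, a prior that was trended and robust, tests on both sides and p-values adjusted by Benjamini-Hochberg over all tested genes within each of 11 comparisons (threshold 0.05). The script was tested on simulated data. This scale understates the change of low genes, and the offset is larger in shallow libraries. Intervals and floors (3 reads) cover counting error only. Coordinates are from GENCODE M21 and count from 1, and promoters are from RefSeq, where 3 of the 4 genes were found.

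The genes and lists were chosen with earlier results of these data known. By rule, the text names the 4 genes throughout, up to 4 genes of smallest p per list among those passing a lung comparison, defining markers, and the 5 genes of highest correlation with each; other members of the lists are named where a count needed them, after their values were seen. Alternatives were other pseudocounts (0 and 5), no filter, quantile and median-ratio rescaling, a plain prior, array weights, voom weights on recovered reads, the removal of 5 libraries under 250000 reads, a replicate block, and each library left out. The removal of shallow libraries leaves GF blood replicate 2, GF spleen replicate 3 and SPF spleen replicate 2 alone in their groups.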

Additional observations from a re-analysis of the deposited data

How the results depend on the processing

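Vegfa, Nrp1 and Angptl4 kept their sign in the 4 lung comparisons under all 26 alternatives (log2 differences from 1.63 to 8.42). Hif1a did so for SPF lung minus blood (1.48 to 1.73). Where every group kept 2 or more libraries, these differences also stayed past the threshold (limma, largest adjusted p 0.0447, and 0.0274 for Hif1a). Of the 26 alternatives, 16 left out 1 library, and leaving out a library outside both groups of a comparison cannot move its difference. Many of these values were thus fixed in advance, and Nrp1 and Angptl4 entered the test through the lung libraries. Of 1144 values of the 4 genes, 16 passed under an alternative but not as reported, and 38 changed sign, of which 0 had passed. The limits are few reads outside the lung, 2 libraries per blood group, shallow spleen libraries and the offset. Where a value changed, the cause was not tested.

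Signs changed as follows. With a pseudocount of 0, GF spleen minus blood gave 0.020 for Angptl4 and GF minus SPF spleen gave 0.00300 for Vegfa. For lung minus blood, GF minus SPF, a pseudocount of 5 gave 0.28 for Nrp1 and 0.64 for Angptl4, quantile rescaling gave 0.34 and 0.75, and the removal of the 5 shallow libraries gave 0.65 and 0.47. GF lung minus blood for Hif1a was -0.091 with quantile rescaling, -0.00796 with median-ratio rescaling, -0.040 with array weights, -0.40 with voom weights and -0.60 without the shallow libraries. GF minus SPF spleen was -0.00299 for Angptl4 with quantile rescaling, and for Vegfa it was 0.17 with array weights, 0.14 with voom weights and 0.21 without the shallow libraries. GF spleen minus blood was 0.084 for Vegfa and 0.39 for Angptl4 with voom weights, and 0.043 for Angptl4 without the shallow libraries. Lung minus spleen, GF minus SPF, was 0.030 for Hif1a without the shallow libraries.

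Numbers of the 4 genes that passed changed in SPF spleen minus blood (2 with a pseudocount of 0, 1 with voom weights, against 0). They also changed in GF minus SPF blood and lung minus blood, GF minus SPF (1 each with voom weights, against 0). In SPF lung minus spleen 4 passed, against 3, with array weights, with voom weights, and without GF blood replicate 2, GF blood replicate 3 or SPF spleen replicate 1. Changes of these numbers without the shallow libraries rest on groups of 1 library and are not counted here.

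Numbers of all genes that passed moved by over 1.5 times. With voom weights they were 1454 in GF lung minus blood (reported 813), 3109 in SPF lung minus blood (1585), 1075 in SPF spleen minus blood (586), 780 in GF minus SPF blood (110), 4 in GF minus SPF spleen (27), 4 in GF minus SPF lung (2), and 67 and 0 in the comparisons of lung minus blood and lung minus spleen between GF and SPF mice (1 each). With array weights they were 2707 in SPF lung minus blood, 1022 in SPF spleen minus blood, 288, 49 and 1 in GF minus SPF blood, spleen and lung, and 37 and 23 between the tissue differences. Without the shallow libraries they were 114 in GF spleen minus blood, 2628 in SPF lung minus blood, 368 in SPF spleen minus blood, 169, 60 and 1 in GF minus SPF blood, spleen and lung, and 18 and 34 between the tissue differences. With a plain prior they were 129 in SPF spleen minus blood, 0, 14 and 0 in GF minus SPF blood, spleen and lung, and 0 in both between the tissue differences. Median-ratio rescaling gave 189 and 41 in GF minus SPF blood and spleen, and 5 and 4 between the tissue differences. Quantile rescaling gave 329 in SPF spleen minus blood and 3 in lung minus spleen between GF and SPF mice, a pseudocount of 5 gave 4 there, and no filter gave 3 and 4 between the tissue differences. Beside a count of 0 by the plain prior, 1367 genes in blood, 332 in lung, and 623 and 561 between the tissue differences had an unadjusted p under 0.05 as reported.

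Quantile rescaling moved the median of all genes to -0.09 in GF lung minus blood (reported 0.15), -0.08 in GF lung minus spleen (0.11), -0.10 in SPF lung minus blood (0.16) and -0.08 in SPF lung minus spleen (0.06). It put the share of passing genes that were higher at 64.9% in GF lung minus spleen (reported 78.9%) and 65.7% in SPF lung minus spleen (79.4%). In SPF spleen minus blood the share was 43.2% as reported, 57.1% with quantile and 54.4% with median-ratio rescaling. In GF minus SPF spleen it was 77.8% as reported and 63.4% with median-ratio rescaling. Median-ratio rescaling moved the median in SPF spleen minus blood to 0.20.

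Leaving out 1 library at a time gave 2 to 351 genes in GF minus SPF blood, 10 to 220 in GF minus SPF spleen, 0 to 5 in GF minus SPF lung, 524 to 1023 in GF lung minus blood, 560 to 1020 in GF lung minus spleen, 704 to 1864 in SPF lung minus blood, 540 to 987 in SPF lung minus spleen, 29 to 153 in GF spleen minus blood, 39 to 730 in SPF spleen minus blood, and 1 to 28 and 0 to 48 between the tissue differences of lung minus blood and lung minus spleen. Without GF lung replicate 4 the counts were 524 in GF lung minus blood and 560 in GF lung minus spleen, without SPF blood replicate 3 704 in SPF lung minus blood, and without SPF lung replicate 3 540 in SPF lung minus spleen. Signs changed within -0.60 to 0.61 for Hif1a in GF lung minus blood, -1.28 to 0.65 for Nrp1 and -0.64 to 0.47 for Angptl4 in lung minus blood, GF minus SPF, -0.51 to 0.22 for Vegfa, -1.19 to 0.018 for Hif1a and -0.57 to 0.54 for Angptl4 in GF spleen minus blood, and -0.23 to 0.27 for Vegfa and -0.34 to 0.39 for Angptl4 in GF minus SPF spleen. The Hif1a difference of SPF lung minus spleen passed without SPF spleen replicate 1 (0.996, adjusted p = 0.0354) and without either GF blood library (adjusted p = 0.0364 and 0.0346).

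Of 9 same-numbered pairs, 0 correlated over 0.1 in their deviations from the group means (-0.13 to 0.07). With so few libraries per group and shallow spleen libraries, such values cannot show whether a shared number means a shared animal. With the numbers as a replicate block the counts were 786 in GF lung minus blood, 815 in GF lung minus spleen, 1547 in SPF lung minus blood and 778 in SPF lung minus spleen, and Angptl4 in GF spleen minus blood was 0.00672.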
